A study of Mus musculus with 2 samples.

Results

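The 10 immediate-early and heat shock genes followed here were measured in single cells of the fetal mouse intestine, and they were Fos, Fosb, Jun, Junb, Jund, Egr1, Ier2, Klf6, Hspa1a and Hspa1b. They were taken by name from the 52636 genes counted in both libraries and were read by genotype within cell classes defined by marker genes. Droplet-based 3′ RNA libraries had been made from the dissociated intestines of 2 embryos at E18.5 on the C57BL/6 background. The reference genotype was Mlkl -/-, named Mlkl-null in the text, and the genotype compared with it was Casp8 C362A/C362A Mlkl -/-, named Casp8-mutant. Both embryos therefore lacked Mlkl, the pore-forming executor of necroptosis, and they differed in Casp8 C362A, which takes away the active-site cysteine of caspase-8, the protease that starts death receptor apoptosis and restrains necroptosis. Both intestines were dissociated in 0.5 mL of papain solution for 30 min, and no sample was kept without dissociation. Each genotype was 1 embryo, so there was no test and no replicate check, and each interval, at 95%, reflects counting error alone.

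Immediate-early genes are transcribed within minutes of a stimulus, from promoters whose factors are already in place and need no new protein synthesis. Fos and Fosb encode partners that pair with the Jun proteins (Jun, Junb and Jund) to form the transcription factor AP-1. Egr1 and Klf6 encode zinc finger transcription factors, and Ier2 encodes a nuclear immediate-early protein. Hspa1a and Hspa1b encode the stress-inducible Hsp70 chaperones, which are switched on by heat shock factor 1 when proteins misfold. In the gut these genes mark growth factor signalling, mechanical stress and injury, and they are also well known to be switched on while tissue is being dissociated into single cells.

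The promoters of 5 members are shown because the results turn on these genes. Jun and Junb differed in opposite directions, Fos differed with the cell class, and Hspa1a and Hspa1b gave the widest differences in the epithelium. Each sequence is RefSeq's on GRCm38.p6 and runs 5′ to 3′ on the gene's strand, from 250 bases before the annotated start to 50 after it. Capitals mark TGACG, the first part of a cyclic AMP response element, the TATA box TATAAA, and the CCAAT box, which reads ATTGG on the other strand. They also mark GAANNTTC, a pair of heat shock element units. Each motif was searched on both strands.
Fos, chr12:85473640-85473939, plus strand: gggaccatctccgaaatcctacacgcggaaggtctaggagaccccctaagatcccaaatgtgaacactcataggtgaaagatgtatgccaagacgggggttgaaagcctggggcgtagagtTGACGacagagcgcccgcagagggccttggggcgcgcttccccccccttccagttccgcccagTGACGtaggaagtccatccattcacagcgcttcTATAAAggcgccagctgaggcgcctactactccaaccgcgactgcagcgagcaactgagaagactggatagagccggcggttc
Jun, chr4:95052173-95052472, minus strand: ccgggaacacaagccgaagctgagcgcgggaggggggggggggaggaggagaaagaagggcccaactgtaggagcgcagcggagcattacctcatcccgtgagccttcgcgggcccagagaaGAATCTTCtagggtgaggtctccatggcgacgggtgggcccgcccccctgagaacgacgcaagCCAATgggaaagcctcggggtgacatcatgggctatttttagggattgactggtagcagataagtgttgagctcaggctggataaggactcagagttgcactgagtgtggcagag
Junb, chr8:84978699-84978998, minus strand: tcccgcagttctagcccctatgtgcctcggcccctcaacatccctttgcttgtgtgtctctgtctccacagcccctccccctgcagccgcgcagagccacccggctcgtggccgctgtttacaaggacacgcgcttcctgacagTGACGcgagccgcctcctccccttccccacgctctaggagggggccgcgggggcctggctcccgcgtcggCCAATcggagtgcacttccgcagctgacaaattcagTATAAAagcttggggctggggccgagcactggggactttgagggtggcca
Hspa1a, chr17:34972107-34972406, minus strand: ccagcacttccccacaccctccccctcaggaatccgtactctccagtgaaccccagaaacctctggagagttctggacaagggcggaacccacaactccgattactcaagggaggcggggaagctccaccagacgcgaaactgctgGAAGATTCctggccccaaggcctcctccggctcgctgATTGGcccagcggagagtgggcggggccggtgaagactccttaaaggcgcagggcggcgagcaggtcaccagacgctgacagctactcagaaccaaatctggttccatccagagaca
Hspa1b, chr17:34959189-34959488, minus strand: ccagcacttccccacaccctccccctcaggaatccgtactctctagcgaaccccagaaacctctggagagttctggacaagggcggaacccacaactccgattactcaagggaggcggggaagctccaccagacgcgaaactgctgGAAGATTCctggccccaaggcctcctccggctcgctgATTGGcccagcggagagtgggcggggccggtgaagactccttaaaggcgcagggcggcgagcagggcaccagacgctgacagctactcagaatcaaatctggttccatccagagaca
The Fos window held TGACG from 129 and from 66 bases before the start and TATAAA from 33 bases before it. The Junb window held TGACG from 106 and CCAAT from 36 bases before the start, and its TATAAA lay at the annotated RefSeq start itself. That RefSeq start lies upstream of the GENCODE start of Junb given below, from which each of these motifs lies further upstream. The Jun window held no TGACG, and its GAATCTTC began 128 bases before the start, with a CCAAT 65 bases before it. The promoters of Hspa1a and Hspa1b were equal at 296 of 300 bases, with GAAGATTC from 104 and ATTGG from 67 bases before each start. Over the 32851 promoter windows of the same length, TGACG was found in 20.8%, GAANNTTC in 7.86%, TATAAA in 13.6% and CCAAT in 37.4%, so such matches are not rare. The 5 windows shown held no TGANTCA (an AP-1 site, in 7.81% of all windows), no CArG box (the serum response factor motif, in 1.63%) and no heat shock element of 3 alternating units (in 0.603%), which says only that these letters are not in these windows. GGGCGG, the GC box, was found in 35.7% of all windows and is not capitalized. Entries were found for 8 of the 10 members, and a match of letters is a description of the window and not evidence of a bound factor.

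The annotated genes (GENCODE M21, GRCm38) were placed as follows. Fos (ENSMUSG00000021250) spans chr12:85473890-85477273 and Fosb (ENSMUSG00000003545) chr7:19302696-19310051. Jun (ENSMUSG00000052684) spans chr4:95049034-95052222, Junb (ENSMUSG00000052837) chr8:84974484-84978718 and Jund (ENSMUSG00000071076) chr8:70698949-70700616. Ier2 (ENSMUSG00000053560) spans chr8:84661331-84662852, and Klf6 (ENSMUSG00000000078) spans chr13:5861482-5870394. Hspa1a (ENSMUSG00000091971) spans chr17:34969190-34972156 and its neighbour Hspa1b (ENSMUSG00000090877) chr17:34956436-34959238. Junb overlaps Prdx2 on the opposite strand, which had 2022 UMIs in the Mlkl-null library and 968 in the Casp8-mutant library. The way strand was handled was not stated in these sources, and reads of these overlapping genes may not be fully separated. The Hspa1a and Hspa1b transcripts share 49.3% and 52.3% of their 90-base windows, but none of the 411 windows in the last 500 bases, where 3′ reads fall.

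The Mlkl-null library held 1478 barcodes with 6290008 unique molecular identifiers (UMIs, each a counted RNA molecule), and the Casp8-mutant library held 1014 barcodes with 2804929. After filtering, 1435 and 873 cells remained, with median depths of 3707 and 1957 UMIs, and 2 barcodes occurred in both libraries. Epithelial-like cells numbered 1187 and 589, fibroblast-like cells 63 and 58, and myeloid-like cells 61 and 109, in the Mlkl-null and Casp8-mutant libraries respectively. These 3 classes were compared, because they had at least 50 cells in each library. Of their marker lists, 30 of 30 epithelial, 16 of 16 fibroblast and 14 of 14 myeloid markers had a UMI in the named class in both libraries. Detection alone does not set a class apart, since Mlkl-null epithelial-like cells also had UMIs of all 16 fibroblast and 14 myeloid markers. Per 1 M UMIs, summed fibroblast markers were 123.8 and 98.3 in epithelial-like cells and 8147 and 7970 in fibroblast-like cells. The fibroblast-like cells also held epithelial markers at 10180 and 9341, against 58770 and 54470 in epithelial-like cells. Xist, transcribed from the inactive X chromosome of female cells, had 2 and 8271 UMIs, and Ddx3y, a gene of the Y chromosome, had 276 and 2. Sex, library preparation and genotype therefore cannot be told apart in any difference given here.

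Levels are counts per 1 M UMIs of the class (CPM), summed over its cells in each library. In the epithelium the members did not shift as a group. Junb was 1.78-fold higher and Jun 1.81-fold lower in the Casp8-mutant library, while Fos, Fosb, Jund and Ier2 lay within 1.07-fold of the Mlkl-null level. In fibroblast-like cells 7 members were lower in the Casp8-mutant library, and in myeloid-like cells Fos and Junb were higher while Fosb, Jund, Klf6 and Hspa1a were lower. The pair of Hsp70 genes was 5.35-fold higher in Casp8-mutant epithelium and 2.93-fold lower in Casp8-mutant myeloid-like cells. The epithelial levels of that pair, and those of Jun and Junb, did not exceed those of haemoglobin-dominated barcodes beyond counting error. The other transcripts of such barcodes may be free RNA. The myeloid difference of the pair came from Hspa1a alone.

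**Figure D1:**
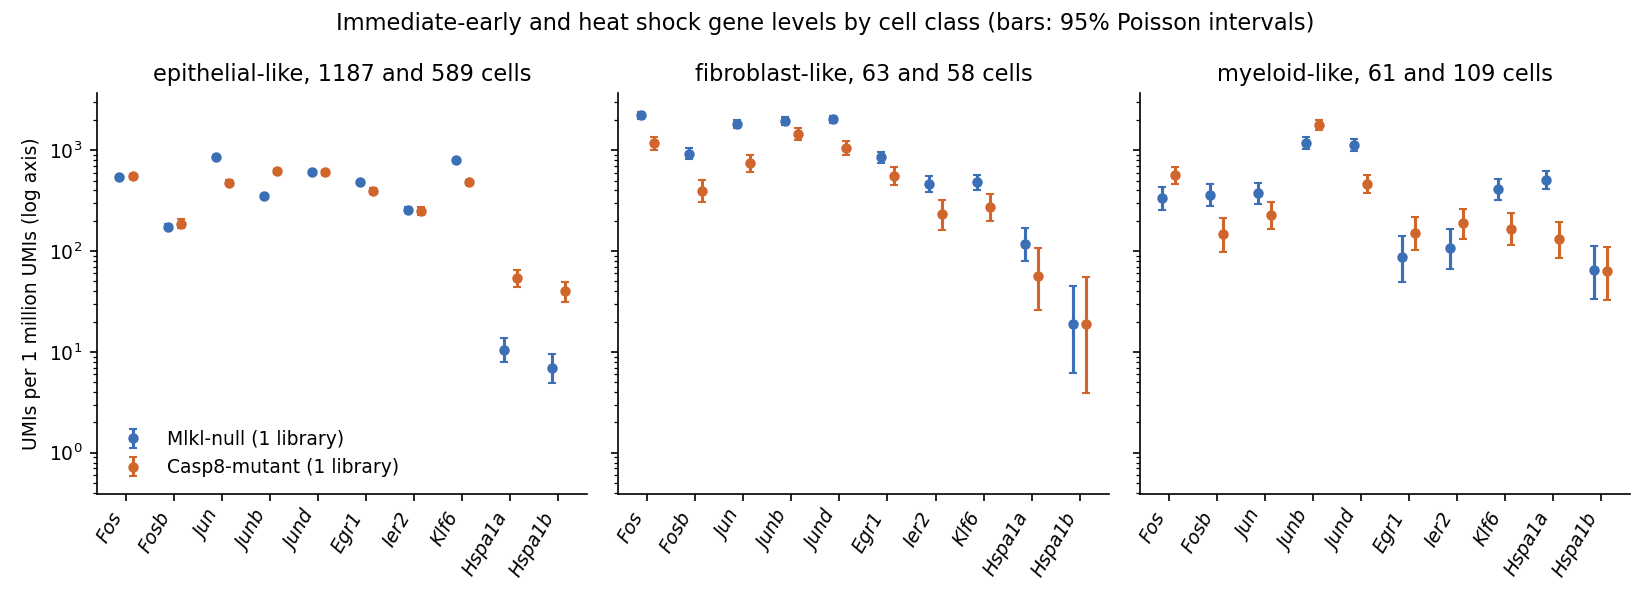
Levels of the 10 members (CPM, log axis) in epithelial-like, fibroblast-like and myeloid-like cells of the Mlkl-null library (blue) and the Casp8-mutant library (orange). Points are sums over the cells of a class in 1 library, and bars are 95% Poisson intervals that cover counting error only. In the epithelial panel Junb, Hspa1a and Hspa1b lie higher in the Casp8-mutant library, whereas in the fibroblast panel each of the 8 immediate-early members lies lower there.

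A member was counted as higher or lower where it differed by at least 1.5-fold and had at least 50 UMIs over both libraries. In epithelial-like cells all 10 members were measured by that rule. Of these, 3 of 10 (Junb, Hspa1a and Hspa1b) were higher in the Casp8-mutant library, against 23.8% of the 10829 genes measured. Another 2 of 10, Jun and Klf6, were lower, against 34.7% of genes. The median log2 ratio of Casp8-mutant over Mlkl-null was 0.01 for the members and -0.23 for all measured genes, so most epithelial genes took a slightly smaller share of the Casp8-mutant total. When the libraries were scaled by that median, log2 ratios moved up to 1.07 for Junb, -0.62 for Jun and -0.51 for Klf6, and Klf6 no longer reached 1.5-fold. Summed granulocyte markers in this class were 36.7 and 3460 CPM (10 and 13 of 13 detected, with Cxcr2, Csf3r and Mmp8 at 0 in the Mlkl-null library), erythroid markers 3052 and 10540, and their part in the member differences was not tested.

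Among the Jun genes, Junb encodes a Jun partner with weaker transactivation that is often described as opposing Jun. Its epithelial level was 350.3 CPM (334.6 to 366.5) in the Mlkl-null library and 624.6 in the Casp8-mutant library, a ratio of 1.78 (1.66 to 1.92). Jun, the founding AP-1 subunit and the target of Jun N-terminal kinases, stood at 865.5 and 478.2 CPM, 1.81-fold lower (1.69 to 1.94). Jund, the Jun gene with steady expression in resting cells, stood at 615.6 and 603.5 CPM, a ratio of 0.981 (0.918 to 1.05). Junb and Jun thus differed in opposite directions between the libraries while Jund stayed level within counting error.

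In fibroblast-like cells the same 3 genes were all lower in the Casp8-mutant library, by unequal amounts. Jun stood at 1822 and 742.2 CPM, 2.45-fold lower (2.002 to 3.03). Jund stood at 2028 and 1057 CPM, 1.92-fold lower (1.61 to 2.30). Junb stood at 1955 and 1459 CPM and was 1.34-fold lower (1.15 to 1.57), short of the 1.5-fold rule. Junb was the immediate-early member with the smallest difference in this class.

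In myeloid-like cells Junb stood at 1184 and 1786 CPM, a ratio of 1.51 (1.27 to 1.80), just past the rule. Jund went the other way, at 1135 and 466.2 CPM, 2.43-fold lower (1.89 to 3.16). Jun stood at 378.4 and 230.5 CPM, 1.64-fold lower (1.11 to 2.45). The ratio of Junb to Jun UMIs was accordingly higher in the Casp8-mutant library in each of the 3 classes.

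The make-up of the AP-1 pool was read as each gene's share of the summed UMIs of Fos, Fosb, Jun, Junb and Jund, a quantity that no scaling of the library can move. Because capture may differ between genes, a gene's share is compared between libraries and not with the other genes' shares. In epithelial-like cells Jun took 34.0% (33.2 to 34.8) of 13607 UMIs in the Mlkl-null library and 19.5% (18.4 to 20.7) of 4983 in the Casp8-mutant library. Junb took 13.8% (13.2 to 14.3) and 25.5% (24.3 to 26.7), and the shares of Fos (21.2% and 22.7%) and Jund (24.2% and 24.6%) lay close together. There were 0.405 Junb UMIs per Jun UMI in the Mlkl-null epithelium and 1.31 in the Casp8-mutant epithelium.

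**Figure D2:**
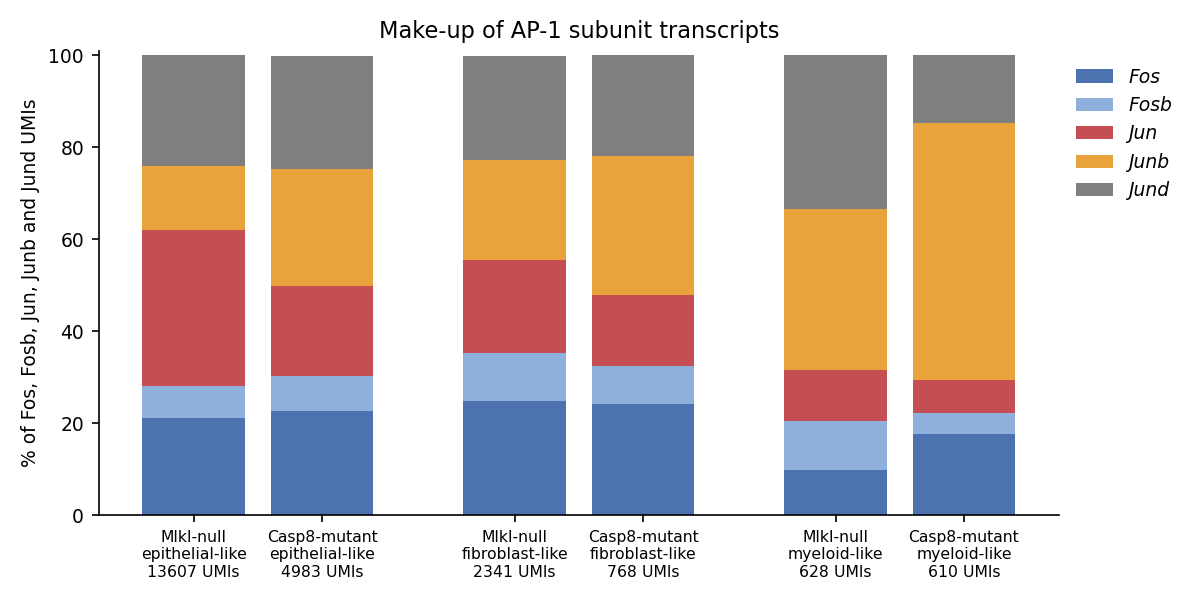
Share (%) of each AP-1 subunit gene in the summed UMIs of Fos, Fosb, Jun, Junb and Jund, by class and library, with the number of UMIs under each bar. The Junb segment is larger and the Jun segment smaller in the Casp8-mutant bar of each class, and in the myeloid bars the Jund segment is smaller as well.

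A higher ratio of Junb to Jun UMIs in the Casp8-mutant library was also present in fibroblast-like and myeloid-like cells. Fibroblast-like cells held 1.07 and 1.97 Junb UMIs per Jun UMI, and myeloid-like cells held 3.13 and 7.75. In myeloid-like cells Junb took 34.9% and then 55.9% of AP-1 UMIs, Jun 11.1% and then 7.21%, and Jund 33.4% and then 14.6%. The share that fell most there was thus that of Jund and not of Jun, unlike in the epithelium. The ratio of Junb to Jun was 0.881 and 1.29 in a cluster of endocrine and islet cells (37 and 35 cells), but 11 and 3.93 in lymphoid-like cells (13 and 21 cells), where only 4 and 15 Jun UMIs were counted. In barcodes dominated by haemoglobin transcripts (52 and 123 barcodes), the other transcripts may be free RNA. As CPM of the UMIs that were not haemoglobin, Jun stood there at 648.5 (396.1 to 1002) and 392.9 (236.6 to 613.6). Junb stood at 389.1 (201.0 to 679.7) and 847.8 (608.4 to 1150). Jund stood at 940.3 (629.7 to 1350) and 992.6 (731.9 to 1316), beside 615.6 and 603.5 CPM in the epithelium. Whether these barcodes also hold member transcripts of their own was not tested. The epithelial levels of Jun, Junb, Fosb, Jund, Egr1 and Ier2 did not exceed those of these barcodes beyond counting error in either library. Klf6 did in both (291.8 and 248.1 in the barcodes), and Fos only in the Mlkl-null library (64.9 and 475.6). The part of such free RNA in the differences of the Junb to Jun ratio was not tested.

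Fos and Fosb, whose proteins dimerize with those of the Jun genes, differed by class. In epithelial-like cells Fos stood at 540.9 and 555.3 CPM, a ratio of 1.03 (0.958 to 1.1), and Fosb at 175.2 and 187.2, a ratio of 1.07 (0.946 to 1.21). Neither difference exceeded counting error, but both depended on which cells entered the class. With at least 1000 detected genes per cell (895 and 70 cells) the log2 ratios were 0.88 for Fos and 1.55 for Fosb, and at clustering resolution 0.5 (914 and 99 cells) they were 0.87 and 1.48, each past 1.5-fold. In fibroblast-like cells Fos stood at 2227 and 1176 CPM, 1.89-fold lower (1.60 to 2.25) in the Casp8-mutant library. Fosb stood there at 926.1 and 396.3 CPM, 2.32-fold lower (1.76 to 3.14). The partners separated in myeloid-like cells, where Fos stood at 335.2 and 565.7 CPM, 1.68-fold higher (1.22 to 2.35), and Fosb at 362.2 and 146.7, 2.44-fold lower (1.57 to 3.99). The Casp8-mutant myeloid Fos level did not exceed that of haemoglobin-dominated barcodes (475.6, 301.5 to 713.7) beyond counting error. The part of free RNA in the myeloid Fos difference was not tested.

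**Figure D3:**
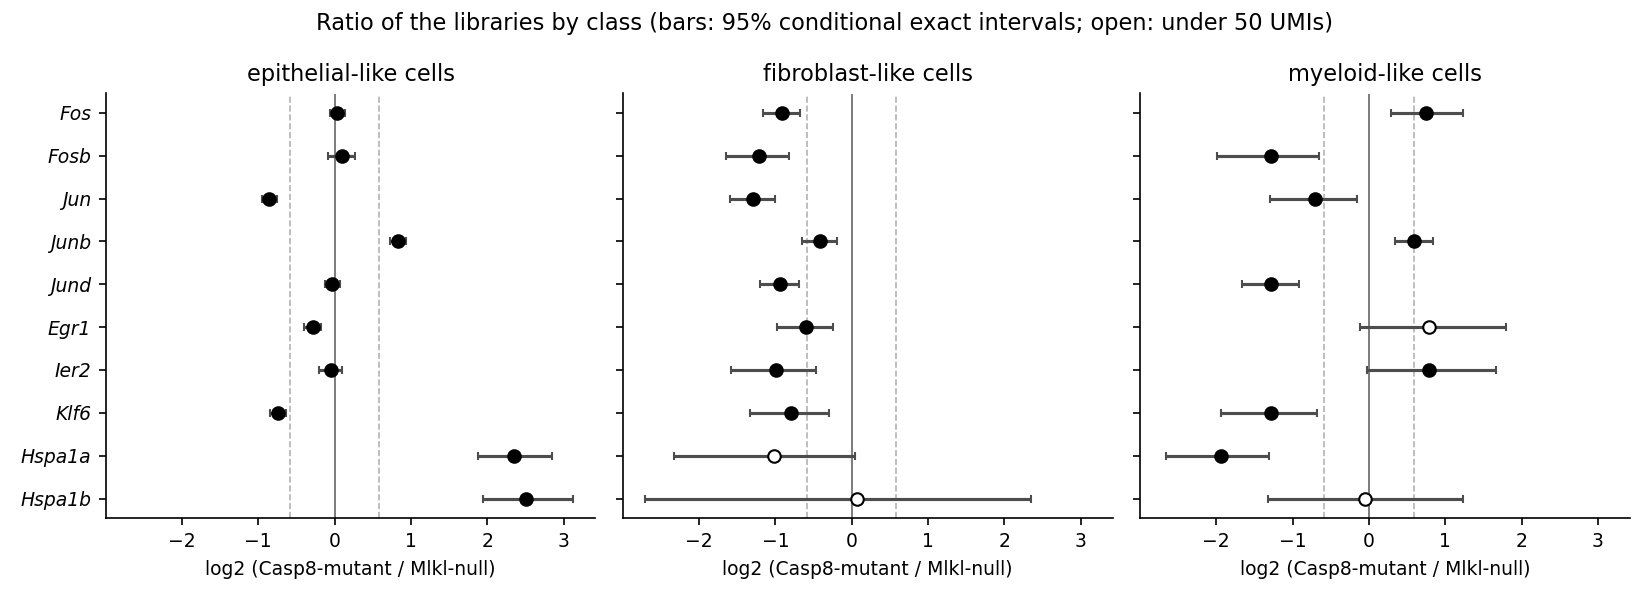
Log2 ratio of Casp8-mutant over Mlkl-null for each member in each class. Points are ratios of levels in CPM, bars are 95% conditional exact intervals for counting error, open points had under 50 UMIs, and dashed lines mark 1.5-fold in each direction. Ratios spread on both sides of 0 in the epithelial and myeloid panels and lie lower than 0 for all 8 immediate-early members in the fibroblast panel.

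Egr1, Ier2 and Klf6 were the members outside AP-1. Egr1, a growth factor response gene, stood at 482.8 and 395.1 CPM in epithelial-like cells, 1.22-fold lower (1.13 to 1.32) in the Casp8-mutant library. Ier2 stood at 258.5 and 249.7 CPM, a ratio of 0.966 (0.871 to 1.07). Klf6 stood at 804.3 and 480.6 CPM, 1.67-fold lower (1.56 to 1.80). Of the 3, Klf6 alone passed the 1.5-fold rule in the epithelium.

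Fibroblast-like cells held Egr1 at 849.5 and 559.8 CPM, 1.51-fold lower (1.18 to 1.96) in the Casp8-mutant library. Ier2 stood at 466.9 and 232.7 CPM, 1.99-fold lower, and Klf6 at 482.2 and 276.8, 1.73-fold lower. These 3 therefore followed the direction of the Fos and Jun genes in that class. In myeloid-like cells Klf6 stood at 410.9 and 167.6 CPM, 2.43-fold lower (1.60 to 3.83). Ier2 was counted as higher there on 20 and 36 UMIs, with an interval of the ratio (0.983 to 3.18) that includes 1, and Egr1 had 16 and 29 UMIs, under the minimum.

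In all, 8 members were measured in fibroblast-like cells: 0 were higher in the Casp8-mutant library, against 24.6% of the 1355 genes measured, and 7 were lower, against 25.3%. Their median log2 ratio was -0.93, beside -0.05 for all genes measured in the class. The 8 immediate-early members together stood at 10760 and 5900 CPM, 1.82-fold lower (1.69 to 1.97). In the Mlkl-null library 5 of the 63 cells held 37.7% of these UMIs, and 1 cell held 313 of 2811. The difference was not limited to those cells, since the median cell held 118 member UMIs per 10000 UMIs in the Mlkl-null library (quartiles 79.3 and 162) and 63.0 in the Casp8-mutant library (32.3 and 111).

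The fibroblast-like class was a single cluster that also carried smooth muscle genes, and these differed between the libraries. Summed smooth muscle markers stood at 7772 and 1032 CPM, with 9 and 8 of 9 markers detected, whereas summed fibroblast markers stood at 8147 and 7970. Granulocyte markers in the class summed to 34.4 and 3114 CPM, with 4 and 11 of 13 detected and Cxcr2 at 0 in both libraries. Erythroid markers summed to 2388 and 9630 CPM and endothelial markers to 627.6 and 201.3, and their part in the member differences was not tested. Among cells with fewer than 3 smooth muscle UMIs (38 and 52 cells), log2 ratios were -1.26 for Fos, -1.61 for Jun and -0.62 for Junb, so the differences of these 3 were as large or larger there. When cells were instead gated on marker UMIs (42 and 24 cells), 2 members were lower by the rule, and Egr1 turned to 0.18 and Junb to 0.00 on the log2 scale.

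In myeloid-like cells 8 members were measured. Fos, Junb and Ier2 (3 of 8) were higher in the Casp8-mutant library, against 27.4% of the 1200 genes measured, and Fosb, Jun, Jund, Klf6 and Hspa1a (5 of 8) were lower, against 18.8%. Their median log2 ratio was -0.99, beside 0.11 for all genes measured. The summed level of the 8 immediate-early members nevertheless lay close, at 4001 and 3703 CPM (1.08-fold lower, 0.973 to 1.20), with the higher Fos and Junb levels offsetting the lower Fosb, Jund and Klf6 levels. The class was made of 2 clusters, both with the complement genes C1qa, C1qb and C1qc and with Cd74 among their 10 leading genes. One, which also had H2-Aa, H2-Ab1 and H2-Eb1 of MHC class II there, held 42 Mlkl-null cells and 0 Casp8-mutant cells. The other held 19 and 109. Within the shared cluster the log2 ratios were 1.05 for Fos, 0.93 for Junb, -1.51 for Jund and -2.34 for Klf6, so these 4 differences were as large or larger there. They rested on few Mlkl-null UMIs: 14 for Fos, 49 for Junb, 70 for Jund and 45 for Klf6. Of these, 5 of the 19 cells held 12 for Fos and 28 for Klf6. Ier2 lost its call in that cluster, where it stood at 170.4 (9 UMIs) and 188.6 CPM, and Egr1 stood at 151.4 (8 UMIs) and 151.9. The class's own myeloid markers summed to 24390 and 13480 CPM, with 14 of 14 detected in both libraries, and endothelial markers to 232.5 and 94.3. Granulocyte markers differed the other way: their sum was 416.3 and 3991 CPM, with 3 and 11 of 13 markers detected and Csf3r and Mmp8 at 0 in both libraries. Summed erythroid markers were 3076 and 18120 CPM, and the part of any of these in the member differences was not tested.

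Hspa1a and Hspa1b were sparse in the epithelium. Hspa1a had 56 UMIs in the Mlkl-null library and 109 in the Casp8-mutant library, 10.5 (7.92 to 13.6) and 53.6 CPM, a ratio of 5.09 (3.67 to 7.18). Hspa1b had 37 and 81 UMIs, 6.93 (4.88 to 9.55) and 39.8 CPM, a ratio of 5.71 (3.85 to 8.72). The 2 genes differed by similar amounts in this class. Cells with a UMI of either gene made up 5.73% of Mlkl-null and 20.03% of Casp8-mutant epithelial-like cells, although the Casp8-mutant cells were shallower.

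Myeloid-like cells showed the opposite direction for Hspa1a. It had 94 UMIs (508.2 CPM) in the Mlkl-null library and 25 (131 CPM) in the Casp8-mutant library, 3.83-fold lower (2.48 to 6.30). The Mlkl-null UMIs came from 29 of 61 cells, and 5 cells held 53.2% of them. In the cluster that both libraries shared, Hspa1a stood at 965.5 (718.9 to 1269) and 131 CPM, and in the cluster found in the Mlkl-null library alone it stood at 325.4. The level in the shared cluster rested on few cells, since 5 of the 19 Mlkl-null cells held 43 of its 51 UMIs and 1 cell held 17. Hspa1b had 12 UMIs in each library in this class, so the pair did not move together there, and the difference of the summed pair (573.1 and 193.8 CPM) came from Hspa1a.

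In fibroblast-like cells Hspa1a had 31 and 9 UMIs and Hspa1b 5 and 3, under the minimum of 50. Within the Mlkl-null library Hspa1a was 48.3-fold higher (34.5 to 68.7) in myeloid-like than in epithelial-like cells, and within the Casp8-mutant library 2.48-fold higher (1.52 to 3.80). Barcodes dominated by haemoglobin held Hspa1a at 32.4 (1 UMI) and 124.1 (6 UMIs, 45.5 to 270.1) CPM of non-haemoglobin UMIs, so its epithelial level did not exceed that of these barcodes in either library beyond counting error. Hspa1b had 0 UMIs in those barcodes in both libraries, which by a floor of 3 counts allows up to 97.3 and 62.0 CPM (exact Poisson upper limits 119.6 and 76.3) and so does not separate its epithelial level from theirs either. The part of free RNA in the epithelial difference was not tested.

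Epithelial-like cells fell into clusters that the libraries hardly shared, so class averages compare different sets of cells. Mlkl-null cells filled 6 clusters of at least 50 cells, and Casp8-mutant cells filled 5 others. Jun lay between 716.3 and 984.7 CPM over the 6 Mlkl-null clusters and between 380.0 and 677.9 over the 5 Casp8-mutant clusters, with no overlap. Junb lay between 224.4 and 468.8 and between 450.7 and 994.3 CPM, overlapping at 1 cluster on each side. The opposite differences of Jun and Junb were therefore present across the clusters and not carried by 1 of them.

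**Figure D4:**
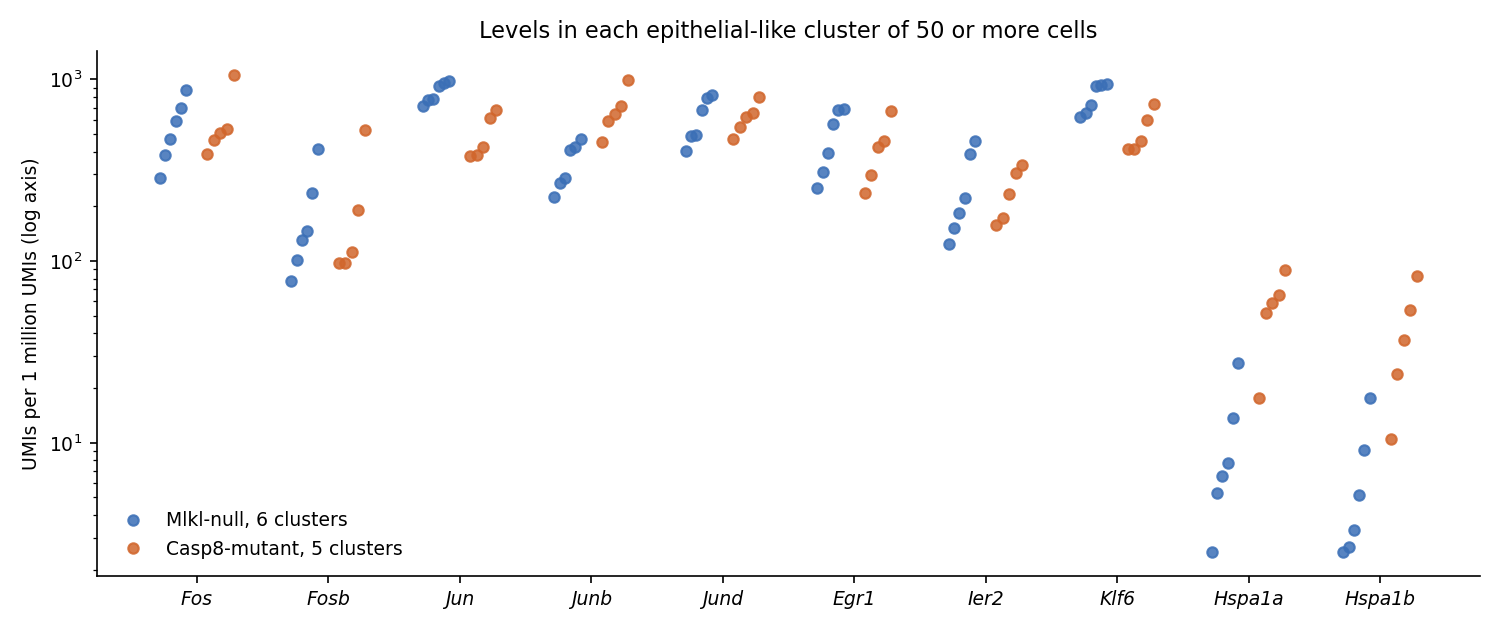
Level of each member (CPM, log axis) in each epithelial-like cluster with at least 50 cells, 6 from the Mlkl-null library (blue) and 5 from the Casp8-mutant library (orange), sorted within a library. Clusters of 1 library are not replicates. The Jun points of the libraries do not overlap, whereas the Fos, Fosb, Jund, Egr1 and Ier2 points do.

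Within a library the members varied unequally between clusters. Jun spread 1.38-fold over the Mlkl-null clusters and Klf6 1.52-fold, whereas Fosb spread 5.29-fold and Fos 3.04-fold. Goblet and Paneth-type genes marked 1 secretory cluster in each library (86 Mlkl-null and 102 Casp8-mutant cells), and there the 8 immediate-early members summed highest in both, at 5493 and 5665 CPM. Fos stood at 872.3 and 1063 CPM in those secretory clusters, Fosb at 412.7 and 529.0, Jun at 925.4 and 677.9, and Junb at 468.8 and 994.3. Set against each other as classes, with 6 Mlkl-null cells that clustered with the Casp8-mutant ones added, the secretory cells gave log2 ratios of 1.13 for Junb, -0.42 for Jun and -0.58 for Klf6.

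Hspa1a ranged from 2.51 to 27.4 CPM over the Mlkl-null clusters and from 17.6 to 89.9 over the Casp8-mutant clusters. Hspa1b ranged from 2.51 to 17.6 and from 10.6 to 82.4 CPM. Both ranges overlapped, with the lowest Casp8-mutant cluster under the highest Mlkl-null cluster. The highest Hspa1b level was in a Casp8-mutant cluster of 93 cells whose median share of nuclear RNA (Malat1, Neat1 and similar) was 8.63%. In a Mlkl-null cluster with a like nuclear share of 9.28% Hspa1b had 2 UMIs, 5.13 CPM. Over the whole class the median nuclear share was 2.72% and 4.26%, and among cells at or under the median nuclear share the log2 ratios were 2.32 for Hspa1a, 2.18 for Hspa1b, 0.53 for Junb, which no longer reached 1.5-fold, and -1.08 for Jun.

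Shares of cells with a UMI were compared after thinning each cell to 2000 UMIs, which left 1057 and 354 epithelial-like cells and left out 130 and 235 shallower ones. Jun was found in 74.8% (72.1 to 77.4) of Mlkl-null and 59.9% (54.6 to 65.0) of Casp8-mutant cells, and without thinning in 86.9% and 66.4%. Junb was found in 47.0% (44.0 to 50.1) and 66.1% (60.9 to 71.0) of thinned cells, and without thinning in 63.9% and 76.1%. Klf6 was found in 71.7% (68.9 to 74.4) and 58.8% (53.4 to 63.9), and without thinning in 81.5% and 59.3%. The shares thus ordered the libraries as the levels did for these 3 genes.

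**Figure D5:**
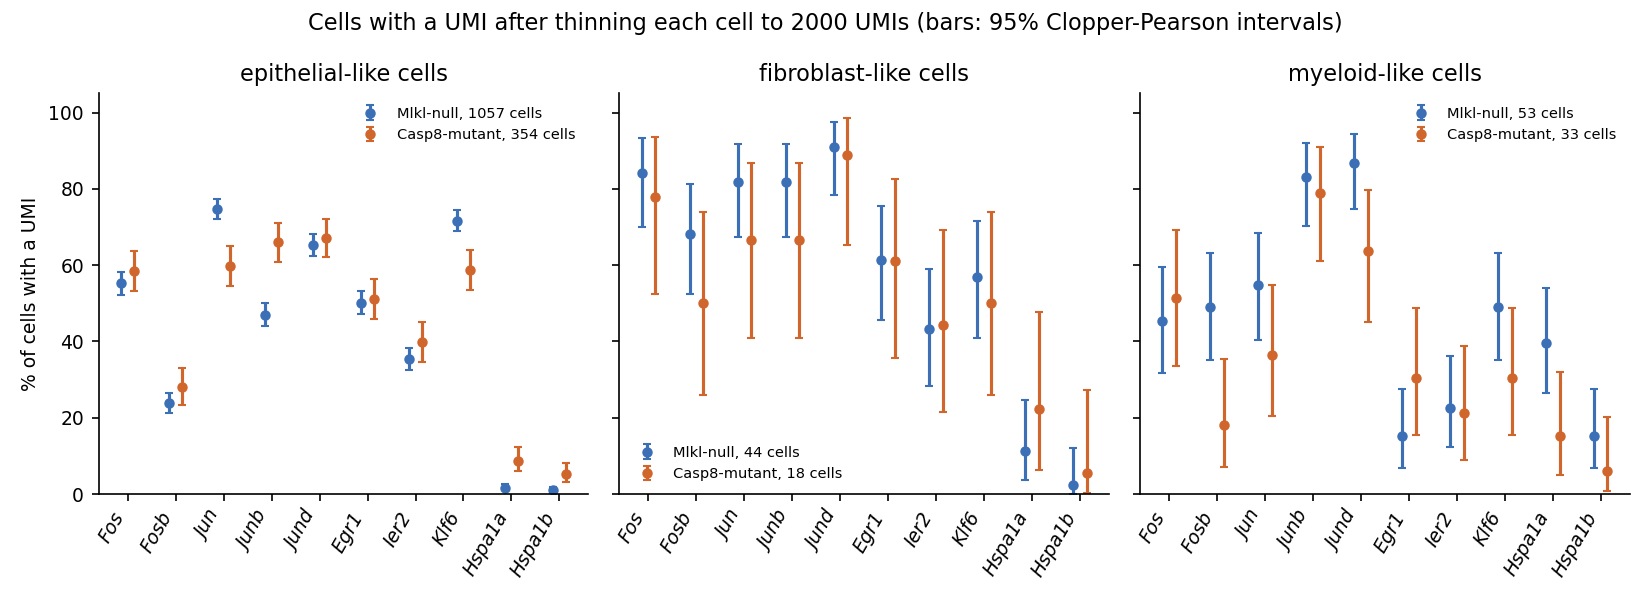
Share (%) of cells with a UMI of each member after each cell was thinned to 2000 UMIs, by class, in the Mlkl-null library (blue) and the Casp8-mutant library (orange), with 95% Clopper-Pearson intervals for counting error. In the epithelial panel the intervals of Jun, Junb, Klf6, Hspa1a and Hspa1b do not overlap between the libraries, while the fibroblast panel rests on 44 and 18 cells and its intervals overlap for each member.

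Fos was found in 55.2% and 58.5% of thinned epithelial-like cells and in 70.9% and 63.5% without thinning, so its order turned with depth and no difference is read from it. Hspa1a was found in 1.70% (1.01 to 2.68) and 8.76% (6.03 to 12.2) of thinned cells, and in 3.79% and 13.4% without thinning. Hspa1b was found in 1.14% (0.588 to 1.97) and 5.37% (3.26 to 8.25), and in 2.70% and 11% without thinning. Erythroid-like cells, used as a class that should carry little of these transcripts beyond free RNA, had median depths of 3148 and 1574 UMIs against 3905 and 2517 in epithelial-like cells. In the 20 thinned Mlkl-null erythroid-like cells Fos was found in 0, Jun in 7, Junb in 4, Klf6 in 3 and Hspa1a in 1 (5%, 0.127 to 24.9), and only 4 Casp8-mutant ones were deep enough to thin. Jund was found in 11 of the 20 (55.0%, 31.5 to 76.9), beside 65.3% of thinned Mlkl-null epithelial-like cells. Little transcript cannot be assumed for Jund in that class. The Mlkl-null epithelial share of Hspa1a lay within the Hspa1a interval of those 20 cells, which is too wide to tell that share from this background. For the Casp8-mutant share, too few erythroid-like cells of its own library were left to compare. Neither share is therefore read as expression.

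Detection of several members in the same cell was counted after thinning. It was not compared with what independent detection would give, and the class pools clusters in which Fos and Fosb levels differ. In thinned epithelial-like cells the median was 4 of the 8 immediate-early members per cell in both libraries, and 45.4% and 46.9% of cells held at least 5. Fosb was found in 31.2% (27.5 to 35.2) of Mlkl-null cells with Fos and in 14.8% (11.7 to 18.3) of those without, and in 33.8% and 19.7% in the Casp8-mutant library. Egr1 was found in 56.6% of Mlkl-null cells with Fos and 42.2% of those without, and in 57.5% and 42.2% in the Casp8-mutant library. Klf6 was found in 72.9% and 70.3% in the Mlkl-null library and in 63.3% and 52.4% in the Casp8-mutant library, and Ier2 in 37.0% and 33.3% and in 44.0% and 34.0%. In the Mlkl-null library Hspa1a was found in 1.03% of cells with Fos and 2.53% of those without, with overlapping intervals. Thinned fibroblast-like cells held a median of 6 members in the Mlkl-null library and 5 in the Casp8-mutant library, and myeloid-like cells 4 and 3.

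Classes of the same library differed in the members they carried. Within the Mlkl-null library Junb was 5.59-fold (5.05 to 6.16), Fosb 5.29-fold and Fos 4.12-fold higher in fibroblast-like than in epithelial-like cells, while Klf6 was 1.66-fold lower (1.40 to 2.01). Within the Casp8-mutant library the same ratios were 2.34 for Junb, 2.13 for Fosb and 2.12 for Fos, and Klf6 was 1.72-fold lower. Egr1 was 5.41-fold lower (3.43 to 9.78) in myeloid-like than in epithelial-like cells of the Mlkl-null library and 2.56-fold lower (1.80 to 3.91) in the Casp8-mutant library. Klf6 was thus the immediate-early member that fibroblast-like cells carried least relative to the epithelium in both libraries. Among the smaller classes, the 8 members summed to 5981 and 6898 CPM in endocrine and islet cells and to 1198 and 1152 in erythroid-like cells.

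Other genes of these programmes were read from lists of related genes, with the members left out. Of 41 further immediate-early genes measured in the epithelium, 17 were higher in the Casp8-mutant library (against 23.8% of all genes), 9 were lower (against 34.7%) and 15 did neither, with a median log2 ratio of 0.43 beside -0.23 for all genes. Id1, an inhibitor of helix-loop-helix factors, stood at 25.8 and 116.0 CPM, 4.48-fold higher (3.62 to 5.58). Ier3 stood at 28.5 and 97.8 CPM, 3.43-fold higher, and Dusp1, a phosphatase that switches off MAP kinases, at 43.4 and 126.3, 2.91-fold higher. Genes lower in the list included Maff, a small Maf factor, at 94.2 and 39.8 CPM (2.35-fold lower), and Sgk1, a kinase, at 55.6 and 28.01 (1.97-fold lower). The further immediate-early genes in the epithelium thus included more higher than lower genes, although the 8 members did not.

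Of 18 kinases and transcription factors upstream of immediate-early genes measured in the epithelium, 0 were higher (against 23.8% of all genes), 12 were lower (against 34.7%) and 6 did neither, with a median log2 ratio of -0.67 beside -0.23 for all genes. Atf2, a factor that binds the Jun promoter, stood at 26.6 and 6.39 CPM on 142 and 13 UMIs, 4.02-fold lower (2.36 to 8.01). Of 17 further heat shock genes measured there, 5 were higher (Hsp90aa1, Dnajb1, Hspa8, Dnaja1 and Hspe1, named after their values were seen), 3 were lower and 9 did neither, with a median of -0.01, and the higher count lay near the 23.8% of all genes. Hsp90aa1, the inducible Hsp90 gene, stood at 87.6 and 204.0 CPM, 2.33-fold higher (2.04 to 2.66). Hspa8, the constitutive Hsp70 gene, stood at 286.8 and 492.0, 1.72-fold higher (1.58 to 1.86), a smaller ratio than those of the inducible pair.

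In fibroblast-like cells the further immediate-early genes lay on the same side as the members. Of 21 measured, 0 were higher in the Casp8-mutant library (against 24.6% of all genes), 17 were lower (against 25.3%) and 4 did neither, with a median log2 ratio of -0.90 beside -0.05 for all genes. Btg2, an antiproliferative gene, stood at 466.9 and 157.3 CPM, 2.92-fold lower (1.92 to 4.77), and Phlda1 at 267.9 and 69.2, 3.73-fold lower (2.04 to 8.11). Of 7 further heat shock genes, 1 was higher (Hspb1, a small heat shock protein gene, at 352.1 and 591.3 CPM) and 3 were lower, among them Hsp90ab1 at 2043 and 949.8, 2.15-fold lower. The same shares of all genes apply, and so few genes do not set the list apart from them.

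In myeloid-like cells 0 of 15 further immediate-early genes were higher (against 27.4% of all genes), 7 were lower (against 18.8%) and 8 did neither, with a median log2 ratio of -0.50 beside 0.11 for all genes. Atf3, a stress-induced AP-1 relative, stood at 497.4 and 209.5 CPM, 2.36-fold lower (1.62 to 3.53). Dusp2 stood at 227.1 and 83.8 CPM, 2.66-fold lower, and Rhob, a small GTPase gene, at 319.0 and 141.4, 2.23-fold lower. Of 4 further heat shock genes 1 was higher, Hspe1, and 2 were lower, too few to set beside those shares. The 8 that did neither included Dusp1 and Nr4a1, with ratios of 1.34 (0.809 to 2.28) and 1.17 (0.767 to 1.80).

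Likeness between genes was measured as Spearman's rho over 21 sums of a cluster in a library, among 6094 genes, as a description only, since the sums share libraries and depth. The summed 8 members followed Fosb (0.93), Fos (0.85), Egr1 (0.81) and Jund (0.80) most closely and Klf6 least (0.30). Outside the members the most alike genes were Tsc22d1 (0.84), Guk1 (0.84), Spcs1 (0.83), Grcc10 (0.77) and Drap1 (0.77). For the Hspa1a and Hspa1b sum they were Marcks (0.79), Ccl2 (0.79), Gm43124 (0.76), Hsp90aa1 (0.75) and Cadm1 (0.74). The Hsp70 sum had a rho of 0.31 with Fos and 0.36 with Junb, whereas the rho of each member with the summed 8 includes that member in the sum.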

How the data were processed

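The deposited values are raw counts of UMIs per gene and barcode, with no normalization, as checked by their being whole numbers. They came from 10x Chromium 3' v2 libraries, per the labels' protocols. Cell Ranger 3.0.2 and Seurat 3.0 were used with mm10, per the submitters' processing notes. Their roles, the barcode filter and strand handling: not given in the sources used here. Labels name both the whole and the small intestine, so the gut region is not settled. Of 52636 gene IDs, 52489 had a symbol in GENCODE M21.

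Cells with under 500 genes (39 Mlkl-null and 139 Casp8-mutant barcodes) or over 20% mitochondrial UMIs (0 and 0) were left out, as were 4 and 2 doublets called by Scrublet in scanpy 1.11.5. So few calls mean that the caller may have missed doublets. Both libraries were clustered together without integration (2000 variable genes per library, 30 principal components, 15 neighbours, Leiden resolution 1, seed 0). The members, related stress genes and sex-linked genes were kept out of clustering. Leading genes of a cluster were those with the largest fold over clusters whose nearest marker class was another one. A cluster took the class with most markers among its 10 leading genes, with ties going to the class with most among its 50. At least 3 markers of the class had to be among those 50 and detected in 10% of its cells. That rule was revised after the clusters were seen, because the earlier form compared with all other cells and left most epithelial clusters unnamed. Epithelial-like clusters of 265 Mlkl-null, 93 Casp8-mutant and 168 Casp8-mutant cells had 0 markers among their 10 leading genes and were named by the 50. Names are given as "-like".

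Each ratio used 0.5 UMI added to both sums. Levels have exact Poisson, ratios conditional exact and shares Clopper-Pearson intervals. UMIs limit the precision: the epithelial-like totals were 5341375 and 2034756, the fibroblast-like 261319 and 158977, and the myeloid-like 184970 and 190910. No test was made with 1 embryo per group. Named genes were the members and up to 3 related genes per direction and class, with others marked where they occur. The members and lists were chosen with earlier results of these data known. The interval code was tested on simulated data. Alternatives covered cell filters, clustering, gating, scaling, depth and thresholds.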

Additional observations from a re-analysis of the deposited data

Results flagged for a closer look

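Fos gave opposite directions in classes of the same embryos, with a log2 ratio of Casp8-mutant over Mlkl-null of 0.75 in myeloid-like cells and -0.92 in fibroblast-like cells. Hspa1a did so as well, at 2.35 in epithelial-like cells and -1.94 in myeloid-like cells. The epithelial levels of Hspa1a, 10.5 and 53.6 CPM, did not exceed those of haemoglobin-dominated barcodes (32.4 and 124.1 CPM of other UMIs) beyond counting error. Fos stood in those barcodes at 64.9 (7.85 to 234.3) and 475.6 (301.5 to 713.7), also higher in the Casp8-mutant library. Its Casp8-mutant myeloid level, 565.7 CPM (464.1 to 683.0), did not exceed the barcode level beyond counting error. The part of free RNA in either difference was not tested. With 1 embryo per group these differences between classes were not tested, and counting error is the only error they were set against.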

How the results depend on the processing

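No paired analysis was possible because each genotype was 1 embryo, and no embryo could be left out. Of the settings below, the shared myeloid-like cluster, cells with fewer than 3 smooth muscle UMIs and the secretory clusters were chosen after seeing the data. In epithelial-like cells 3 members were higher and 2 lower as reported. The count of lower members was 0 with at least 1000 genes per cell (895 and 70 cells), 0 at resolution 0.5 (914 and 99 cells), 1 with cells gated on marker UMIs, 1 with median of ratios scaling, 1 after thinning to 2000 UMIs, 0 at 2-fold and 0 in the secretory clusters alone. At each of the settings of 1000 genes and resolution 0.5, 4 members were higher, with Fos and Fosb gained and Hspa1b under 50 UMIs. The secretory clusters alone had 1 higher member, since Hspa1a and Hspa1b fell under 50 UMIs there. In fibroblast-like cells 7 were lower as reported, 2 when gated and 2 at 2-fold, and Egr1 turned to 0.18 when gated and to 0.10 after thinning (log2). In myeloid-like cells 3 were higher as reported, 1 with at least 1000 genes, 1 when gated, 1 after thinning and 0 at 2-fold. Apart from the counts at 2-fold, which follow from the stricter rule, the cause was not tested. Over the 17 settings run in epithelial-like cells, log2 ratios ranged from 1.98 to 2.74 for Hspa1a, 1.04 to 2.75 for Hspa1b, -0.21 to 0.88 for Fos, -0.12 to 1.55 for Fosb, 0.53 to 1.53 for Junb, -1.08 to -0.33 for Jun and -0.84 to -0.40 for Klf6. Over 16 settings in myeloid-like cells they ranged from -2.87 to -1.47 for Hspa1a and 0.54 to 1.05 for Fos. Fibroblast-like cells did not form a class in both libraries with at least 1000 genes per cell or with each library clustered alone. Adding smooth muscle-like and endothelial-like cells was not run, because no such cluster formed.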
